A study of Sus scrofa with 20 samples.

Results

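Repeated low-flow ischemia was compared with sham operation in the hearts of pigs. The comparison takes the 5 arrays titled RCS and the 5 titled control, 10 of the 20 arrays of the series. RCS animals went through 6 episodes of coronary artery stenosis, a narrowing that lowers flow without stopping it, each of 90 min and begun at intervals of 12 h. Control animals were sham-operated. All of the animals were female, the material was heart tissue, and the labels state that no treatment preceded the experiment; the sources used here do not state strain, age, the part of the wall sampled or how long after the last RCS episode tissue was taken. Of the other arrays, 5 came from SWOP animals (2 coronary occlusions of 10 min, each followed by 10 min of reperfusion, with sampling after 24 h) and 5 from RCO animals (the SWOP stimulus given 6 times at intervals of 12 h). These serve below to estimate the spread and to show where RCS differs from the protocols built on full occlusion. The title of the series asks whether preconditioning after chronic ischemia uses other mechanisms than the classical second window, the delayed protection that follows a brief ischemic stimulus.

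Heart muscle meets its energy demand mainly by oxidizing fatty acids in mitochondria. When flow is reduced but not abolished, the muscle can contract less and stay alive, and when such episodes recur or persist the state is called hibernating myocardium. Hibernating muscle is known for a turn from fat toward glucose as fuel, for re-expression of fetal genes such as the natriuretic peptides, for loss of contractile material, for chaperones and survival proteins, and for fibrosis between the muscle cells.

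Every value is a deposited log2 signal, a difference of 1 standing for 2-fold. Differences are RCS minus control (n = 5 arrays in each group), and ± is the standard error of the fit. Adjusted p-values come from limma with Benjamini-Hochberg adjustment over 23999 probe sets, a value below 0.05 counting as passed. The fit takes a common variance from all arrays of the series, so ± is not the spread of the groups compared alone. Where RCO arrays scatter more than the others, as for LGALS3, ± is too wide against control and too narrow against RCO. With only RCS and control arrays fitted 12012 probe sets passed, beside 11404 in the fit of all arrays. With only RCS and RCO arrays fitted 931 passed, beside 4572. Array medians lay between 6.77 and 6.80 in RCS and between 6.79 and 6.81 in control. The interquartile range of the signals was 3.36 ± 0.0803 in RCS and 3.09 ± 0.0451 in control (SD), and spike-in transcripts of bacterial and phage origin averaged 10.32 on RCS arrays and 10.62 on control arrays. Both differences had p = 0.00794 in a two-sided exact permutation test, the smallest that 5 against 5 arrays allow, and 0.0159 after adjustment over 6 array properties. How much brighter the 3′ end of a control transcript is than its 5′ end reflects how intact the RNA was. For actin this difference averaged 0.652 over RCS arrays and 1.55 over control arrays (exact permutation p = 0.00794). The same measure was 0.046 and −0.098 for GAPDH (p = 0.0238) and −0.134 and −0.012 for EF1a (p = 0.0159, both by the exact permutation test). These 5 properties therefore moved with the group, and their part in the differences below was not tested. A fit with the mean of the GAPDH and EF1a measures as a covariate is among the alternatives, but since the 2 moved in opposite directions their mean hardly differed between the groups (−0.044 in RCS and −0.055 in control), and the fit leaves out actin, so it is no test of RNA quality. Arrays of RCS correlated with each other at r = 0.987 to 0.994, control arrays at 0.985 to 0.992, and RCS with control arrays at 0.944 to 0.980 (across probe sets). The labelled tissue was borne out by its defining transcripts: ACTC1, cardiac actin, measured 14.00 to 14.26 in control and 13.38 to 13.71 in RCS, and TNNT2, cardiac troponin T, 14.15 to 14.31 and 13.61 to 14.14, against an array median near 6.8.

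Of 6765 genes with a symbol, 3689 (54.5%) passed in RCS against control, 1949 (28.8%) higher and 1740 (25.7%) lower. The balance depended on the scaling, with 1634 higher and 1806 lower after quantile normalization. Most of these differences were small, with a median size of log2 0.50 among the genes that passed and 2204 of them (59.7%) under 1.5-fold. Large ones were mostly increases: 457 genes (6.76%) passed at more than 2-fold higher and 98 (1.45%) at more than 2-fold lower, 94 rose and 6 fell by more than 4-fold, and 23 rose and 0 fell by more than 8-fold. In 2718 genes (40.2%), and in 32.6% of all probe sets, the 5 RCS values and the 5 control values did not overlap. The direction also moved with brightness, since of 3 equal parts of the probe sets by mean signal, 19.5% of those that passed were higher in the dimmest, 38.0% in the middle one and 58.8% in the brightest. Counts for groups of genes are therefore set beside these shares over all genes. With a test against a limit of 1.5-fold in place of any difference, 585 probe sets were higher and 106 lower, against 4632 (19.3%) and 6772 (28.2%) without the limit. In bulk tissue fewer cells of a type and less RNA per cell cannot be told apart, and this holds for every difference given here.

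**Figure D1:**
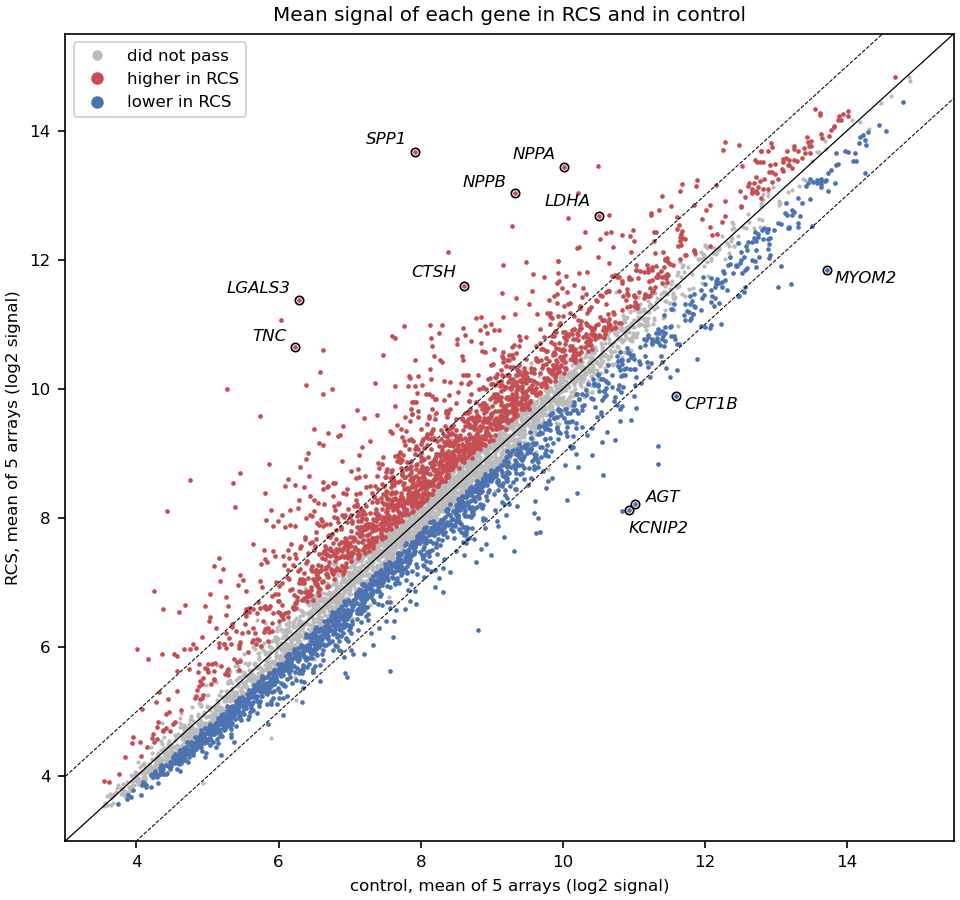
Mean log2 signal of 6765 genes in 5 RCS arrays (vertical axis) against 5 control arrays (horizontal axis); colour marks the genes that passed, the solid line equality and the dashed lines a 2-fold difference. Points reach farther above the diagonal than below it: 457 genes passed at more than 2-fold higher and 98 at more than 2-fold lower.

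The largest increases were in secreted and matrix proteins, lectins and lysosomal proteins of scavenging cells, natriuretic peptides and a heat shock protein. SPP1, which encodes osteopontin, a matrix and cytokine-like glycoprotein made by macrophages and injured tissue, measured 6.73, 7.75, 8.65, 8.85 and 7.63 on the control arrays and 13.28, 14.06, 13.86, 13.80 and 13.31 on the RCS arrays. The 2 groups lay far apart and the RCS arrays differed little among themselves. SPP1 rose 53.4-fold (log2 5.74 ± 0.65, adjusted p = 2.8e-06). LGALS3, the galactose-binding lectin galectin-3, was at 6.22, 6.21, 6.38, 6.47 and 6.12 in control and 11.72, 11.56, 11.99, 11.25 and 10.40 in RCS and rose 34.4-fold (log2 5.1 ± 0.64, adjusted p = 7.3e-06). No RCS array came near the control arrays, which lay close together just under the array median. GPNMB, a membrane glycoprotein of macrophages and lysosome-rich cells, rose 32.7-fold (log2 5.03 ± 0.52, adjusted p = 1.5e-06); of its 4 other probe sets 2 were also higher and 1, at −0.45, was lower, and the mean over all its probe sets rose 3.16-fold.

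Matrix proteins were well represented among the others. TNC, the matrix glycoprotein tenascin-C, was at 6.22, 6.04, 6.25, 6.07 and 6.59 in control and at 9.76, 11.50, 11.48, 10.59 and 9.92 in RCS, and rose 21.3-fold (log2 4.42 ± 0.64, adjusted p = 3.1e-05). CILP, cartilage intermediate layer protein, a matrix protein of cardiac fibroblasts, was at 7.63 to 9.54 in control and 11.11 to 12.46 in RCS and rose 13.4-fold (adjusted p = 2.0e-06), and its other probe set did not pass (−0.19). POSTN, periostin, which marks activated fibroblasts, was at 9.69, 7.88, 10.16, 9.27 and 9.4 in control and 12.33, 13.09, 12.82, 12.40 and 12.00 in RCS, and rose 9.5-fold (log2 3.25 ± 0.39, adjusted p = 4.8e-06). In each of these 3 genes every RCS array exceeded every control array. The chemokine CXCL14 rose 26.3-fold (adjusted p = 9.6e-05) and RARRES1, a retinoid-responsive membrane protein, 14.2-fold (adjusted p = 3.5e-05). TCN1, a vitamin B12 binding protein, rose 12.8-fold (adjusted p = 1.9e-07), AMBN, known as the enamel matrix protein ameloblastin, 12.8-fold (adjusted p = 1.9e-07), and SMPDL3A, a secreted sphingomyelinase-like phosphodiesterase, 12.8-fold (adjusted p = 2.4e-06). LCP1, the actin-bundling plastin of white blood cells, rose 9.46-fold (adjusted p = 1.7e-06). These folds are of each gene's brightest probe set. With the mean over a gene's probe sets CILP rose 3.42-fold, TCN1 3.83-fold, RARRES1 6.44-fold, POSTN 6.09-fold, LCP1 5.72-fold and CXCL14 17.2-fold, and all 6 still passed. All 15 of the largest increases were without overlap between the groups, which over all genes held for 40.2%. They were chosen by size on these same arrays, so this follows largely from the choice.

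**Figure D2:**
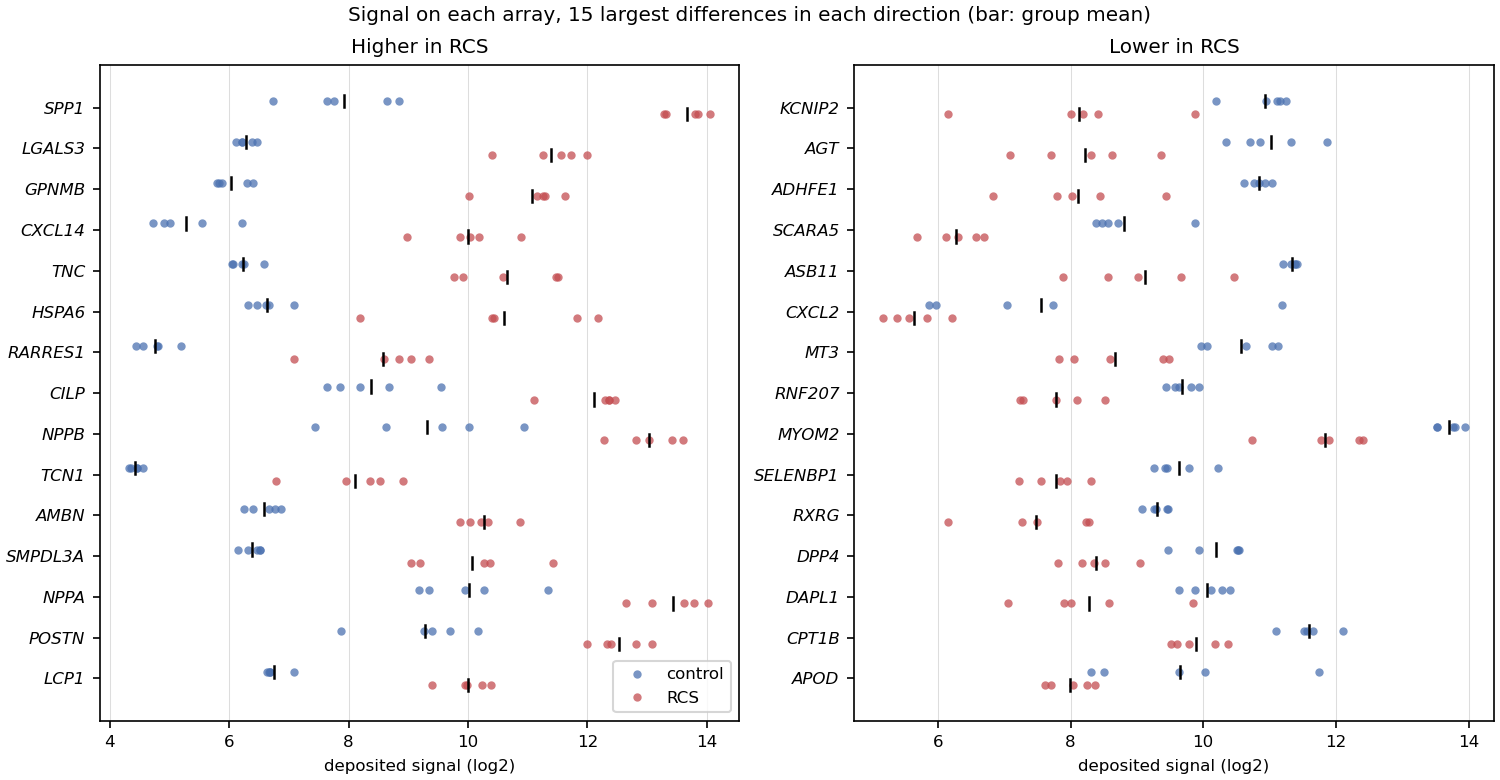
Deposited log2 signal (horizontal axis) on each of the 5 control (blue) and 5 RCS (red) arrays for the 15 largest increases (left) and 15 largest decreases (right) chosen by the naming rule; black bars are group means. The groups are apart for all 15 increases and for 12 of the 15 decreases, and overlap for CXCL2, DAPL1 and APOD.

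Among the largest decreases were proteins of the cardiac action potential, of fuel use and of the sarcomere. KCNIP2, the subunit that the transient outward potassium channel needs to reach the membrane, measured 10.94, 10.19, 11.25, 11.11 and 11.15 in control and 9.88, 8.41, 6.15, 8.19 and 8.0 in RCS. All RCS arrays were below the control arrays, and they spread far more among themselves, with replicate 3 the lowest. KCNIP2 fell 6.97-fold (log2 −2.8 ± 0.45, adjusted p = 7.5e-05). AGT, angiotensinogen, the precursor of angiotensin, was at 10.86, 10.71, 10.35, 11.86 and 11.32 in control and 9.37, 8.31, 7.09, 7.7 and 8.63 in RCS and fell 6.96-fold (log2 −2.8 ± 0.38, adjusted p = 1.6e-05). ADHFE1, a mitochondrial dehydrogenase of hydroxy acids, fell 6.63-fold (adjusted p = 2.3e-06), SCARA5, a ferritin-binding scavenger receptor of stromal cells, 5.78-fold (adjusted p = 4.4e-06), and ASB11, a muscle-rich adaptor of a ubiquitin ligase, 4.68-fold (adjusted p = 3.1e-05). MYOM2, the myomesin that crosslinks myosin at the M band, was at 13.53, 13.76, 13.53, 13.94 and 13.79 in control and 12.41, 11.78, 10.74, 11.90 and 12.34 in RCS and fell 3.67-fold (log2 −1.88 ± 0.23, adjusted p = 6.9e-06). CPT1B, the carnitine palmitoyltransferase that admits long-chain fatty acids to muscle mitochondria, was at 11.10, 12.11, 11.52, 11.57 and 11.66 and 10.17, 9.6, 9.51, 9.78 and 10.38 and fell 3.26-fold (log2 −1.7 ± 0.18, adjusted p = 1.5e-06). In both, the lowest control array was above the highest RCS array. RXRG, a retinoid receptor, fell 3.54-fold (adjusted p = 7.1e-05), MT3, a metallothionein, 3.72-fold (adjusted p = 0.00048), DPP4, a membrane peptidase, 3.52-fold (adjusted p = 2.2e-05), SELENBP1, a selenium-binding oxidase of methanethiol, 3.62-fold (adjusted p = 6.2e-06), and RNF207, a ubiquitin ligase that affects cardiac repolarization, 3.72-fold (adjusted p = 2.2e-06). CXCL2, a neutrophil chemokine, was at 5.87, 5.97, 7.05, 11.18 and 7.74 in control and 6.22, 5.56, 5.84, 5.18 and 5.38 in RCS, so that 1 control array stood far above the others and the groups overlapped. It fell 3.8-fold (log2 −1.93 ± 0.65, adjusted p = 0.021), and its adjusted p was 0.063 with only the 2 groups in the fit. Without that array, control replicate 4, it fell 2.03-fold (adjusted p = 0.023). DAPL1 and APOD, the carrier protein apolipoprotein D, fell 3.45-fold (adjusted p = 0.00097) and 3.14-fold (adjusted p = 0.0051), also with overlap.

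The machinery that folds secreted proteins rose as a group. Of 19 measured chaperones of the endoplasmic reticulum and genes of the unfolded protein response, 17 were higher in RCS and 0 lower, 13 of them by more than 2-fold, with a median difference of 1.18 against −0.004 over all genes. The unfolded protein response is the program that raises folding capacity when proteins accumulate in that compartment. HSPA5, its main chaperone (BiP), measured 11.89, 11.78, 11.97, 11.75 and 11.99 in control and 13.33, 13.10, 13.23, 12.97 and 13.08 in RCS and rose 2.4-fold (log2 1.27 ± 0.15, adjusted p = 3.8e-06). CRELD2, a secreted stress-induced protein of the same compartment, was at 7.2, 7.23, 7.22, 6.98 and 7.38 and 10.32, 9.41, 9.74, 9.38 and 8.92 and rose 5.11-fold (log2 2.35 ± 0.22, adjusted p = 6.6e-07). In both genes the groups did not overlap. MANF, a factor secreted under such stress, rose by 1.36 ± 0.13, ERO1A, the oxidase that drives disulfide formation, by 1.09 ± 0.12, SELENOS, a selenoprotein of retrograde export, by 1.24 ± 0.12, and XBP1, the transcription factor whose splicing switches the response on, by 0.86 ± 0.10 (largest adjusted p of the 4, 3.6e-06).

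The route that follows the endoplasmic reticulum moved the same way. In the list of the secretory pathway and vesicle coats 39 of 47 measured genes were higher and 1 lower (median 0.83), 17 of them by more than 2-fold. SEC61B, a subunit of the channel through which new proteins enter, was at 7.63, 7.79, 8.19, 7.86 and 8.18 in control and 9.66, 10.09, 9.98, 9.83 and 9.4 in RCS and rose 3.64-fold (log2 1.86 ± 0.20, adjusted p = 1.9e-06). KDELR3, a receptor that returns resident proteins to the endoplasmic reticulum, rose by 2.52 ± 0.27, with 1 of its 2 other probe sets also higher and a mean over its probe sets of 1.54. SEC23B of the outbound coat, SSR4 of the translocon and the cargo receptor SURF4 rose by 1.44 ± 0.14, 1.43 ± 0.14 and 1.36 ± 0.15 (adjusted p = 1.1e-06, 9.1e-07 and 2.3e-06).

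Lysosomal genes rose as widely. Of 25 measured hydrolases and membrane proteins of the lysosome, the acidic compartment that breaks down proteins, lipids and sugars, 21 were higher, 16 by more than 2-fold, and the median was 1.24. CTSD, the aspartic protease cathepsin D, measured 9.9, 9.78, 9.99, 9.86 and 10.12 in control and 11.74, 12.03, 12.54, 12.12 and 11.46 in RCS, a clear gap between the groups, and rose 4.14-fold (log2 2.05 ± 0.23, adjusted p = 3.0e-06). CTSH, a cysteine cathepsin, was at 8.72, 8.33, 8.69, 8.52 and 8.8 and 12.01, 11.68, 11.91, 11.47 and 10.91 and rose 7.91-fold (log2 2.98 ± 0.35, adjusted p = 4.0e-06). CTSS, the cathepsin of antigen-presenting cells, rose by 2.12 ± 0.25, CTSZ by 2.0 ± 0.22 and the galactosidase GLA by 1.7 ± 0.18 (largest adjusted p of the 3, 4.1e-06). CTSC was the 1 member called lower, at −0.35 ± 0.12 (adjusted p = 0.024), but 1 of its 3 other probe sets was called higher, at 0.57, and the mean over its probe sets was 0.075. Macrophage markers, which are rich in lysosomes, rose in the same arrays, and their part in these differences was not tested.

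Other parts of protein turnover moved less. Cytosolic heat shock proteins and cochaperones had 15 of 26 members higher and 0 lower (median 0.36). HSPA6, a strictly stress-inducible member of the HSP70 family, measured 6.62, 6.32, 6.66, 7.09 and 6.46 in control and 12.17, 10.43, 8.19, 11.82 and 10.40 in RCS and rose 15.7-fold (log2 3.97 ± 0.68, adjusted p = 0.00014). The RCS arrays were all above the controls but spread over a wide range, replicate 3 at its lower and replicate 1 at its upper end, and without replicate 3 the rise was 23.8-fold. HSPH1, a nucleotide exchange factor for HSP70, rose by 2.34 ± 0.26, the cochaperone DNAJB1 by 1.92 ± 0.41, the inducible HSP70.2 by 1.8 ± 0.43 and the HSP90 cochaperone PTGES3 by 1.04 ± 0.11 (adjusted p = 2.3e-06, 0.00092, 0.0023 and 1.5e-06). HSPA6, HSP70.2 and other HSP70 genes are near-identical in parts, so their probe sets may share signal. Of 7 small heat shock proteins, which hold unfolded proteins in solution, 5 were higher, all by less than 2-fold, among them HSPB1 at 0.79 ± 0.15 (adjusted p = 0.00028), HSPB6 at 0.59 ± 0.19 (adjusted p = 0.014) and HSPB8 at 0.61 ± 0.21 (adjusted p = 0.020). CRYAB, alpha-B crystallin, was called higher at 0.66 ± 0.13 by its brightest probe set, but its other probe set was at −0.44 and the mean of both at 0.11 (adjusted p = 0.75).

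18 of 31 proteasome subunits were higher and 2 lower, with a median of 0.28 and none beyond 2-fold. PSMD14, the deubiquitinase of the regulatory particle, rose by 0.69 ± 0.12 (adjusted p = 0.00021), whereas the inhibitor PSMF1 fell by 0.65 (adjusted p = 0.00014). Quantile normalization lowered the count of higher subunits to 12. Ubiquitin ligases and atrophy genes had 4 of 8 members lower and 0 higher, with KLF15, a glucocorticoid-responsive regulator of amino acid and lipid use, at −0.97 ± 0.25 (adjusted p = 0.0037). In the list of autophagy, the delivery of cell contents to lysosomes, 7 of 16 genes were higher and 3 lower: WIPI1, which binds early autophagosomes, rose by 1.13 ± 0.13 (adjusted p = 2.7e-06), BNIP3L, a receptor for mitochondria, by 0.53 ± 0.14 (adjusted p = 0.0054), and PINK1, the kinase that marks damaged mitochondria, fell by 1.32 (adjusted p = 4.5e-06). Over the mean of a gene's probe sets the autophagy counts were 3 and 3, with WIPI1 at 0.53, and after quantile normalization 4 and 4. Mitochondrial chaperones and proteases stood near the shares over all genes, with 2 of 9 higher (HSPD1 at 0.37 ± 0.12 and HSPE1 at 0.4 ± 0.12, the subunits of the chaperonin) and 3 lower (DNAJA3 at −0.52 ± 0.11, HSPA9 at −0.41 ± 0.10 and the protease LONP1 at −0.33 ± 0.10).

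**Figure D3:**
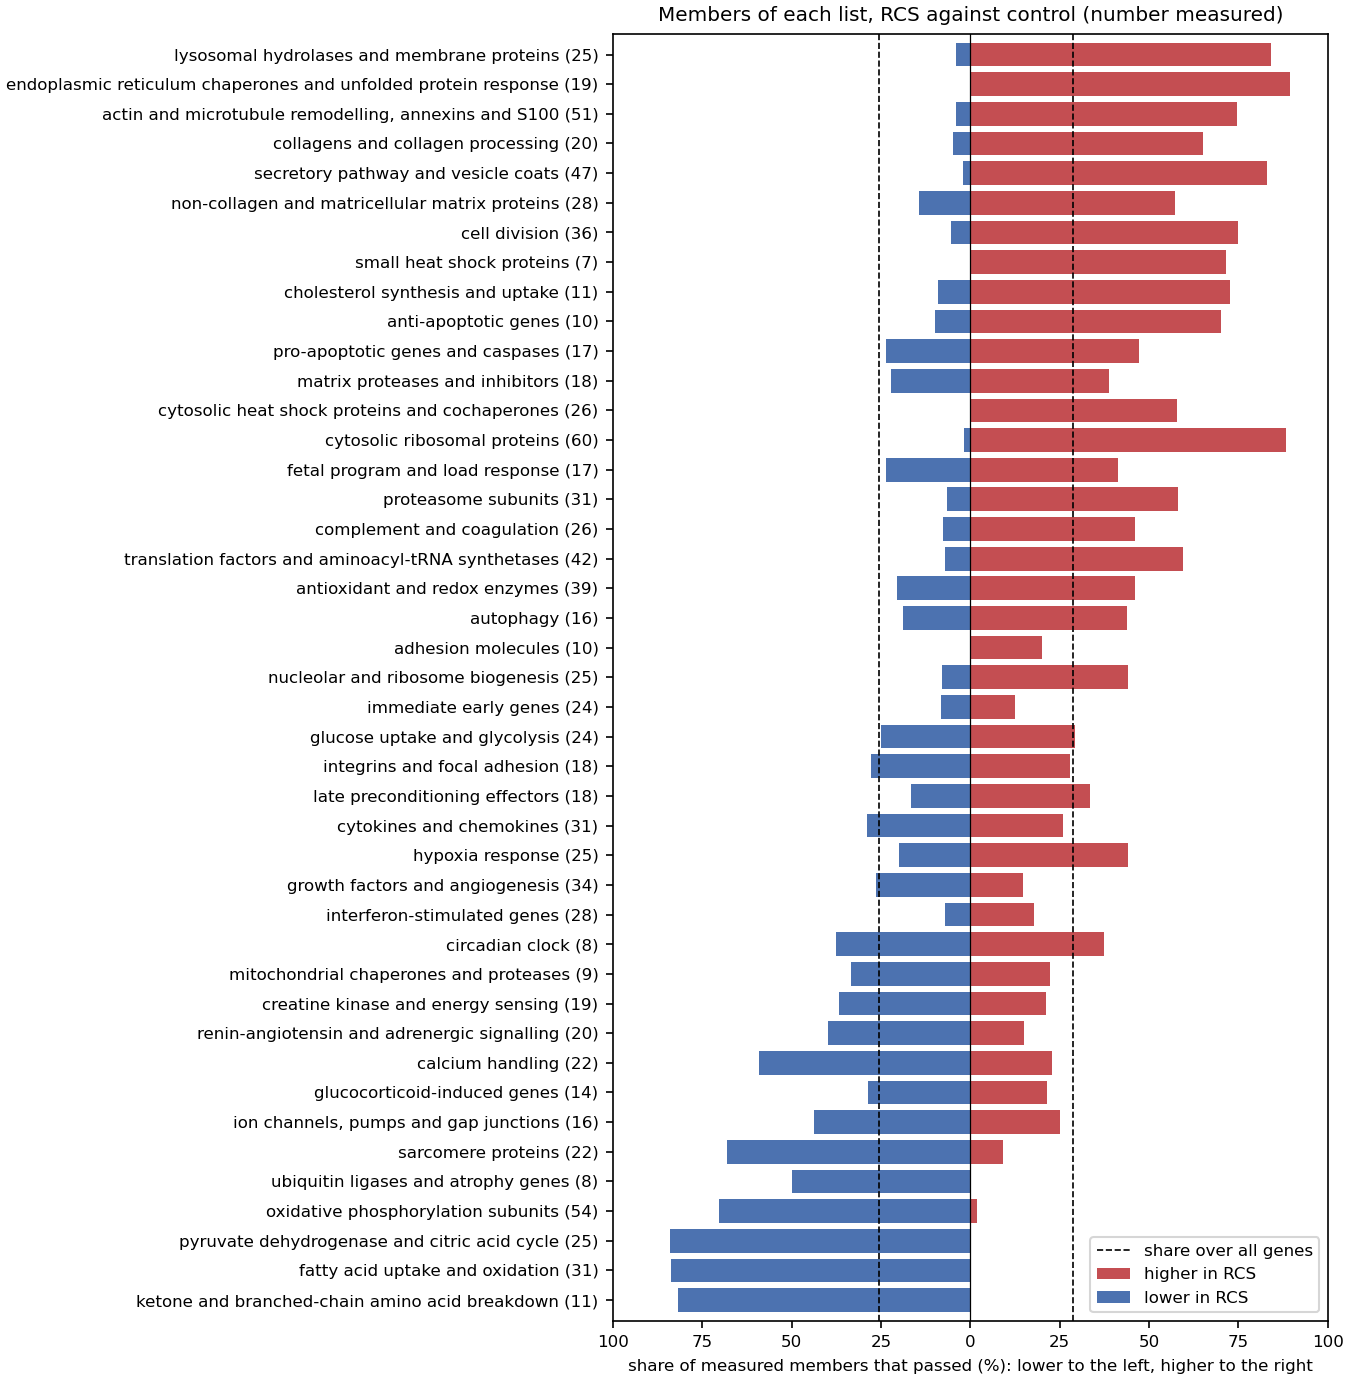
Share of the measured members of each list (number in brackets) that passed in RCS against control, higher to the right in red and lower to the left in blue, lists ordered by their median difference; dashed lines mark the shares over all 6765 genes, 28.8% higher and 25.7% lower. Folding, secretion, lysosome, ribosome and matrix lists lie to the right of the line, fuel oxidation and sarcomere lists to the left. An exception is the list of mitochondrial chaperones and proteases, with 22.2% higher and 33.3% lower.

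Genes of fuel oxidation fell almost without exception among those that passed. In fatty acid uptake and oxidation 26 of 31 measured genes were lower and 0 higher, with a median of −0.65 and 7 lower by more than 2-fold. Beside CPT1B, ACAA2, the thiolase of the last step of the cycle, measured 11.85, 12.13, 11.84, 11.74 and 11.85 in control and 11.16, 10.33, 9.7, 10.33 and 10.82 in RCS and fell 2.66-fold (log2 −1.41 ± 0.21, adjusted p = 3.3e-05). The groups did not overlap, and the controls were close together apart from replicate 2, the highest. ECI1, an isomerase for unsaturated chains, fell by 1.12, ACADL, a long-chain dehydrogenase, by 0.94 and HADH, the hydroxyacyl dehydrogenase, by 0.83 on the log2 scale (largest adjusted p of the 3, 1.9e-05). Breakdown of ketone bodies and branched-chain amino acids had 9 of 11 genes lower and 0 higher (median −0.98). OXCT1, which activates ketone bodies for oxidation, was at 11.64, 11.55, 11.41, 11.29 and 11.36 in control and 10.64, 10.23, 10.03, 10.29 and 10.39 in RCS and fell 2.19-fold (log2 −1.13 ± 0.13, adjusted p = 2.7e-06). PCCA of propionate metabolism, the transaminase BCAT2, BCKDHA of the branched-chain dehydrogenase and the hydrolase HIBCH fell by 1.3, 1.15, 0.93 and 0.98 on the log2 scale (largest adjusted p, 3.4e-05).

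The shared end of fuel use followed. Of 25 genes of pyruvate dehydrogenase and the citric acid cycle 21 were lower and 0 higher (median −0.5), none beyond 2-fold. PDHA1, the catalytic subunit of pyruvate dehydrogenase, was at 12.04, 11.96, 12.00, 11.83 and 11.92 in control and 11.40, 11.06, 10.88, 11.22 and 11.54 in RCS and fell 1.66-fold (log2 −0.73 ± 0.14, adjusted p = 0.00037). MDH2, SDHC and FH of the cycle fell by 0.69, 0.69 and 0.55 on the log2 scale (largest adjusted p, 0.00030). Of 54 subunits of oxidative phosphorylation 38 were lower and 1 higher (median −0.4). NDUFV1, the NADH-binding subunit of complex I, was at 12.01, 11.91, 12.06, 12.06 and 11.95 in control and 11.33, 10.65, 10.68, 10.89 and 11.24 in RCS and fell 2.06-fold (log2 −1.04 ± 0.14, adjusted p = 1.9e-05), and NDUFS7 of the same complex fell 2.05-fold (log2 −1.04 ± 0.15, adjusted p = 2.3e-05). The count of lower subunits was 29 without RCS replicate 3 and 44 with array weights. The 1 subunit called higher was COX6A1, the isoform of complex IV found in tissues other than heart and skeletal muscle, at 0.83 ± 0.19 (adjusted p = 0.0016). SLC25A5, the adenine nucleotide carrier of proliferating cells, also rose, by 1.28 ± 0.14 (adjusted p = 2.2e-06).

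Glucose use did not move as a block. Of 24 genes of glucose uptake and glycolysis 7 were higher and 6 lower, shares of 29.2% and 25% beside 28.8% and 25.7% over all genes. LDHA, the lactate dehydrogenase subunit that favours lactate formation, measured 10.71, 10.07, 10.90, 10.45 and 10.38 in control and 12.50, 12.64, 12.98, 12.74 and 12.52 in RCS and rose 4.51-fold (log2 2.17 ± 0.16, adjusted p = 1.9e-07). All RCS arrays were above the controls by a wide gap. ENO1, the ubiquitous enolase, rose by 1.99 ± 0.26 and SLC16A3, a lactate exporter, by 1.51 ± 0.26 (adjusted p = 1.3e-05 and 0.00017). Of the glucose transporters SLC2A1, the basal one, rose by 0.7 ± 0.20 (adjusted p = 0.0078) and SLC2A4, the insulin-responsive one of muscle, fell by 0.92 (adjusted p = 0.00076). PGM1, a phosphoglucomutase, and PFKM, the muscle form of phosphofructokinase, were lower, at −0.74 ± 0.14 and −0.73 ± 0.23 (adjusted p = 0.00026 and 0.014). PFKM missed the threshold without RCS replicate 3 (adjusted p = 0.051). Creatine kinases, which buffer ATP, also parted by isoform. CKB, the brain-type form, was at 8.15, 7.95, 8.65, 8.63 and 8.68 in control and 9.84, 10.13, 10.48, 10.44 and 9.63 in RCS and rose 3.23-fold (log2 1.69 ± 0.22, adjusted p = 1.0e-05), while CKM, the muscle form, was at 14.27, 14.23, 14.20, 14.30 and 14.23 and 13.80, 13.26, 12.51, 13.43 and 13.69 and fell 1.88-fold (log2 −0.91 ± 0.16, adjusted p = 0.00022). Of the energy sensor AMP-activated kinase, the catalytic subunit PRKAA2 fell by 0.71 and the regulatory subunit PRKAG2 rose by 1.36 ± 0.32 (adjusted p = 0.00048 and 0.0020).

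The natriuretic peptides, hormones that heart muscle releases under load, were among the largest increases. NPPB, which encodes B-type natriuretic peptide, measured 7.44, 8.63, 9.57, 10.94 and 10.02 in control and 12.82, 13.42, 13.61, 13.03 and 12.28 in RCS and rose 13.1-fold (log2 3.71 ± 0.61, adjusted p = 0.00011). NPPA, the atrial peptide, was at 10.27, 9.18, 9.35, 11.34 and 9.95 and 13.09, 14.02, 13.62, 13.79 and 12.65 and rose 10.7-fold (log2 3.42 ± 0.52, adjusted p = 5.0e-05). Controls spread widely in both genes, and still every RCS array was higher. XIRP2, an actin-binding protein of the intercalated disc, rose 4.58-fold (adjusted p = 7.9e-05), TNNT1, the slow skeletal troponin T, 2.96-fold (adjusted p = 4.9e-05), and FHL1, a stress-responsive LIM protein, 1.86-fold (adjusted p = 0.00085). In the whole list of the fetal program and load response 7 of 17 genes were higher and 4 lower. MYH7, the beta myosin heavy chain, measured 14.83 to 14.90 in control and 14.79 to 14.86 in RCS and did not pass (−0.04 ± 0.06, adjusted p = 0.59), at a signal near the top of the array's range.

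Contractile genes were mostly lower. Of 22 sarcomere proteins 15 were lower and 2 higher, with a median of −0.35. ACTC1 fell by 0.6, MYL3, the essential myosin light chain of ventricle, by 0.54 and TTN, the giant spring protein titin, by 0.41 on the log2 scale (adjusted p = 1.4e-05, 0.00014 and 0.00025). TNNT2 fell by 0.29 (adjusted p = 0.016, and 0.057 without RCS replicate 3). The 2 higher members were CAPZB, a capping protein, at 0.76 ± 0.12 and DES, the intermediate filament desmin, at 0.79 ± 0.15 (adjusted p = 6.4e-05 and 0.00035), and the other probe set of DES was called lower, at −0.23. DMD, dystrophin, which ties the cytoskeleton to the membrane, fell by 0.74 (adjusted p = 1.3e-05).

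Calcium handling showed 13 of 22 genes lower and 5 higher. RYR2, the release channel of the sarcoplasmic reticulum, measured 12.18, 12.10, 12.40, 12.35 and 12.10 in control and 10.91, 10.80, 10.36, 11.23 and 11.71 in RCS and fell 2.34-fold (log2 −1.22 ± 0.19, adjusted p = 6.9e-05). SLC8A1, the sodium-calcium exchanger, fell 2.25-fold (log2 −1.17 ± 0.17, adjusted p = 2.8e-05) and CAMK2D, the calmodulin kinase of heart, 1.68-fold (adjusted p = 9.4e-06). PLN, phospholamban, the brake on the calcium pump, fell by 0.49 (adjusted p = 0.00061). The pump itself, ATP2A2, was called lower at −0.55 ± 0.11 by its brightest probe set, but 2 of its 3 other probe sets were called higher, and the mean over its probe sets was −0.03 (adjusted p = 0.82). Higher members included SLN, the small pump inhibitor sarcolipin, at 2.52 ± 0.69, ATP2B1, a plasma membrane calcium pump, at 1.72 ± 0.20, and FKBP1B, which binds the release channel, at 1.4 ± 0.13 (adjusted p = 0.0059, 4.1e-06 and 6.3e-07). SLN measured 6.09, 6.42, 6.6, 6.65 and 6.2 in control and 7.13, 9.23, 10.91, 9.5 and 7.79 in RCS, the RCS arrays reaching from just above the controls to far above them. Beside KCNIP2, KCNJ3 of the acetylcholine-gated potassium channel fell by 0.74 (adjusted p = 0.00056), and the sodium pump partners ATP1B3 and FXYD5 rose by 1.36 ± 0.17 and 1.56 ± 0.20 (adjusted p = 5.4e-06 and 1.0e-05).

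The renin-angiotensin and adrenergic list had 8 of 20 genes lower, 4 by more than 2-fold, and 3 higher. Beside AGT, the angiotensin receptor AGTR1 was at 8.96, 8.91, 9.39, 9.14 and 8.98 in control and 8.36, 7.73, 7.69, 7.89 and 8.06 in RCS and fell 2.19-fold (log2 −1.13 ± 0.13, adjusted p = 3.0e-06). PDE3A, the phosphodiesterase that limits cyclic AMP in heart, fell 2.87-fold (log2 −1.52 ± 0.16, adjusted p = 1.5e-06), and EDNRA, the endothelin receptor of muscle cells, 2.08-fold (log2 −1.05 ± 0.13, adjusted p = 5.8e-06). ATP6AP2, the prorenin receptor, which is also a part of the lysosomal proton pump, rose 2.07-fold (log2 1.05 ± 0.12, adjusted p = 2.9e-06).

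Matrix genes rose. Of 20 collagens and collagen-processing genes 13 were higher and 1 lower (median 0.86), and of 28 other matrix proteins 16 higher and 4 lower (median 0.78). COL8A1, a short-chain collagen of remodelling tissue, was at 7.18, 6.84, 7.29, 7.21 and 7.0 in control and 9.09, 10.10, 9.91, 9.93 and 9.32 in RCS and rose 5.92-fold (log2 2.57 ± 0.31, adjusted p = 4.9e-06). FN1, fibronectin, was at 10.39, 9.7, 10.73, 10.96 and 10.66 and 13.06, 13.90, 13.76, 13.68 and 12.85 and rose 7.79-fold (log2 2.96 ± 0.51, adjusted p = 0.00016). Control replicate 2 was the lowest, and every RCS array was above every control array. With the mean over all probe sets COL8A1 rose 1.91-fold and FN1 3.14-fold. LOXL1, an enzyme that crosslinks collagen and elastin, rose by 2.37 ± 0.31, SERPINH1, the collagen chaperone, by 1.3 ± 0.19, and the proteoglycans BGN and LUM by 1.83 ± 0.25 and 1.74 ± 0.26 (largest adjusted p of the 4, 3.5e-05). Among proteases and inhibitors 7 of 18 genes were higher and 4 lower, with the inhibitors TIMP1 at 2.75 ± 0.51 and TIMP2 at 1.55 ± 0.24 (adjusted p = 0.00031 and 5.5e-05). TGFBR1, a receptor of transforming growth factor beta, rose by 1.32 ± 0.14 and FSTL3, an activin-binding protein, by 1.37 ± 0.17, whereas IGFBP5, an insulin-like growth factor binding protein, fell by 1.46 (adjusted p = 2.3e-06, 7.1e-06 and 0.00062); TGFBR1 was at 0.58 over the mean of its probe sets. Growth factors and angiogenesis genes as a list had 5 of 34 higher and 9 lower. Of the coagulation and complement list (12 of 26 higher, 2 lower) PLAU and PLAT, the plasminogen activators, rose by 1.74 ± 0.29 and 1.2 ± 0.27 and SERPINE2, a protease inhibitor, by 2.07 ± 0.27, while complement factor D, CFD, fell by 1.22 (adjusted p = 0.00012, 0.0016, 9.2e-06 and 8.5e-05).

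Genes of protein synthesis rose by small amounts. Cytosolic ribosomal proteins had 53 of 60 members higher and 1 lower, with a median of only 0.35. In 55 of the 60 the groups did not overlap, beside 40.2% over all genes. Direction also moved with brightness over all probe sets, and its part here was not tested. RPL3 of the large subunit was at 11.49, 11.42, 11.97, 11.76 and 11.76 in control and 13.05, 13.18, 13.41, 13.21 and 12.99 in RCS and rose 2.81-fold (log2 1.49 ± 0.16, adjusted p = 1.9e-06). RPSA of the small subunit, also a laminin receptor, rose by 0.8 ± 0.10 (adjusted p = 5.7e-06). Ribosomal protein genes have many near-identical pseudogenes, so a probe set may hold signal of several copies. Of translation factors and aminoacyl-tRNA synthetases 25 of 42 were higher and 3 lower (median 0.25), EIF3I at 0.83 ± 0.09 and EIF4B, which helps unwind message leaders, at −0.76 ± 0.11 (adjusted p = 2.9e-06 and 2.6e-05). Nucleolar and ribosome biogenesis genes had 11 of 25 higher and 2 lower.

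Actin and microtubule remodelling genes, annexins and S100 proteins had 38 of 51 members higher and 2 lower, 25 by more than 2-fold, with a median of 0.99. CFL1, cofilin, which severs actin filaments, was at 9.96, 9.7, 10.01, 10.20 and 10.34 in control and 11.58, 11.83, 12.17, 11.85 and 11.32 in RCS and rose 3.27-fold (log2 1.71 ± 0.17, adjusted p = 1.3e-06). S100A11, a calcium-binding partner of annexins, rose by 2.06 ± 0.21, ACTR3 of the branching complex by 1.57 ± 0.15, ANXA2, annexin A2, by 1.59 ± 0.26 and CLIC1, a chloride channel protein, by 1.4 ± 0.20 (largest adjusted p of the 4, 0.00011). Cell division genes, which mark cycling cells of any type, had 27 of 36 members higher and 2 lower (median 0.71). CKS2, which binds the mitotic kinase, was at 7.79, 7.68, 8.33, 7.38 and 8.21 in control and 9.82, 9.65, 9.79, 9.74 and 9.04 in RCS and rose 3.32-fold (log2 1.73 ± 0.22, adjusted p = 7.4e-06). TOP2A, the topoisomerase of dividing cells, was at 6.79 to 8.04 in control and 8.86 to 9.08 in RCS and rose 2.79-fold (log2 1.48 ± 0.20, adjusted p = 1.7e-05). MAD2L1 of the spindle checkpoint rose by 1.19 ± 0.16 and CCND2, a cyclin of early cycle, fell by 0.87 (adjusted p = 1.8e-05 and 4.9e-05). Cholesterol synthesis and uptake had 8 of 11 genes higher and 1 lower, FDPS of isoprenoid synthesis at 0.98 ± 0.13 and INSIG1, a sterol sensor, at 1.77 ± 0.27, or 1.18 over the mean of its probe sets (adjusted p = 1.1e-05 and 5.6e-05 for the brightest).

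Antioxidant enzymes were more often higher than lower. Of 39 antioxidant and redox enzymes 18 were higher (46.2%) and 8 lower (20.5%), beside 28.8% and 25.7% over all genes. TXN, thioredoxin, was at 11.18, 11.15, 11.36, 11.25 and 11.29 in control and 12.54, 12.58, 13.06, 12.87 and 12.43 in RCS and rose 2.73-fold (log2 1.45 ± 0.12, adjusted p = 3.4e-07). GLRX, glutaredoxin, rose by 1.82 ± 0.16, HMOX1, the heme oxygenase induced by heme and oxidants, by 1.79 ± 0.38, and GPX1, a glutathione peroxidase, by 2.82 ± 0.48 (adjusted p = 4.7e-07, 0.00095 and 0.00014). CAT, catalase of peroxisomes, fell by 0.91 (adjusted p = 5.4e-06). The effectors by which late preconditioning is known to act in heart stood near the background, with 6 of 18 higher and 3 lower (33.3% and 16.7%). NOS2, the inducible nitric oxide synthase, fell by 0.49 (adjusted p = 0.0032). PTGS2, the inducible cyclooxygenase, was at 4.0, 4.11, 3.96, 6.0 and 4.26 in control and 4.29, 4.26, 4.29, 4.25 and 4.14 in RCS and did not pass (−0.22 ± 0.26, adjusted p = 0.50). All of these but control replicate 4 lay below 5.48, the 30th percentile of mean signal, where a difference may go unseen. PTGS1, the constitutive cyclooxygenase, rose by 0.98 ± 0.14, STAT3, a cytokine-activated transcription factor, by 0.9 ± 0.17, the kinase PRKCD by 1.01 ± 0.14 and DDAH1, which degrades an inhibitor of nitric oxide synthase, by 2.17 ± 0.30 (adjusted p = 2.5e-05, 0.00038, 2.3e-05 and 2.1e-05).

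Hypoxia response genes had 11 of 25 members higher and 5 lower, and their median was −0.04. HIF1A, the oxygen-regulated transcription factor, rose by 0.68 ± 0.10 (adjusted p = 2.9e-05) and CITED2, which competes with it for a coactivator, fell by 1.33 (adjusted p = 2.8e-06). VEGFA, the angiogenic factor, did not pass (−0.06 ± 0.19, adjusted p = 0.81), with 10.82 to 11.46 in control and 10.58 to 11.38 in RCS. Of 10 anti-apoptotic genes 7 were higher and 1 lower: BIRC5, survivin, which also acts in mitosis, rose by 1.62 ± 0.23, TMBIM6, an inhibitor of cell death at the endoplasmic reticulum, by 0.57 ± 0.12, and BCL2L1 fell by 0.42 (adjusted p = 2.5e-05, 0.00087 and 0.018; the call of BCL2L1 was lost without RCS replicate 3 or control replicate 2). Of 17 pro-apoptotic genes and caspases 8 were higher and 4 lower, CASP8 at 0.78 ± 0.13 and AIFM1 at −0.74 ± 0.15 (adjusted p = 0.00010 and 0.00070).

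Few immediate early genes passed. Of 24 of these, which peak within the first hours of a stimulus, 3 were higher and 2 lower, below the shares over all genes. The groups overlapped in all 24, whereas over all genes 40.2% were without overlap. The control arrays were scattered: the median of the list on each array, taken relative to the control mean of each gene, ran from −0.675 (replicate 1) to 0.962 (replicate 4) in control and from 0.064 to 0.309 in RCS. Without control replicate 4 the counts were 8 and 1, and over all alternatives 1 to 8 were higher. Against SWOP 10 of the 24 were higher in RCS and 0 lower, beside 20.3% and 17.7% over all genes, and 6 to 15 were higher over the alternatives. The median of the list against control was 0.16 in RCS and −0.46 in SWOP. CEBPD, a transcription factor of the acute phase, rose by 1.14 ± 0.36 and IER3 fell by 0.77 (adjusted p = 0.013 and 0.0030). JUN, ATF3 and BTG1 passed at 0.028, 0.044 and 0.043 and lost their calls in 6, 9 and 10 of 20 alternatives. The circadian clock had 3 of 8 genes higher and 3 lower. ARNTL, the activator of the clock, was at 5.96, 6.86, 5.93, 6.3 and 5.81 in control and 6.67, 8.06, 8.11, 7.77 and 7.39 in RCS and rose 2.69-fold (log2 1.43 ± 0.27, adjusted p = 0.00040). Its lowest RCS array lay within the control range. The repressors CRY2 and PER1 fell by 0.84 and 0.64 (adjusted p = 0.0055 and 0.0076), and the sources used here do not state the time of day of sampling. Cytokines and chemokines had 8 of 31 higher and 9 lower, near the background, with IL18 up by 1.48 ± 0.22 and CCL14 down by 1.33 (adjusted p = 4.4e-05 and 3.4e-05). Interferon-stimulated genes had 5 of 28 higher and 2 lower, but 2 and 4 after quantile normalization. Glucocorticoid-induced genes had 3 of 14 higher and 4 lower, adhesion molecules 2 of 10 and 0, and integrins with focal adhesion genes 5 of 18 and 5.

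Markers of cell types moved unequally. Of 14 cardiomyocyte markers 11 were lower and 1 (NPPA) higher, with a median of −0.45, and their summed signal was 17.93 to 17.99 in control and 17.45 to 17.77 in RCS (log2 of the sum). Activated fibroblast markers were higher in 9 of 9 genes, with a median of 2.75 and a summed signal of 12.50 to 13.11 in control and 14.72 to 15.55 in RCS. Over the mean of each gene's probe sets all 9 still passed, with a median of 1.65. The list includes POSTN, TNC, CILP, FN1, COL8A1 and TIMP1, already given above, so it is not a separate result. Fibroblast markers in general had 5 of 11 higher and 2 lower, THY1 at 1.89 ± 0.26 and GSN, gelsolin, at −0.72 ± 0.13 (adjusted p = 1.8e-05 and 0.00029). COL1A1, MYH11 and CD68 carry no symbol in the probe table and were not analysed here. Smooth muscle and pericyte markers had 6 of 10 higher and 1 lower. CNN1, calponin of smooth muscle and activated fibroblasts, was at 8.16, 8.69, 8.52, 9.24 and 8.47 in control and 10.04, 10.90, 10.98, 11.20 and 11.06 in RCS and rose 4.66-fold (log2 2.22 ± 0.24, adjusted p = 2.0e-06).

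Macrophage and monocyte markers were higher in 13 of 21 genes and lower in 1, with a median of 0.99. Their summed signal was 12.99 to 13.63 in control and 14.30 to 14.99 in RCS. LGALS3, GPNMB and CTSS, already given above, are among them. AIF1, a calcium-binding protein of macrophages, was at 7.75, 7.68, 7.72, 7.96 and 8.47 in control and 10.24, 9.97, 10.28, 10.19 and 9.51 in RCS and rose 4.35-fold (log2 2.12 ± 0.23, adjusted p = 2.3e-06). FCER1G, the signalling chain of Fc receptors, rose by 2.21 ± 0.27 and ITGB2, the beta chain of the white cell integrins, by 2.42 ± 0.37 (adjusted p = 6.0e-06 and 4.7e-05). MARCO, a scavenger receptor, fell by 0.83 (adjusted p = 7.3e-05). T and NK cell markers had 1 of 13 higher and 3 lower, with CD3E, a chain of the T cell receptor complex, at 5.96 to 6.65 in control and 5.73 to 6.05 in RCS (−0.24 ± 0.20, adjusted p = 0.33). Neutrophil markers had 1 of 7 higher and 2 lower. Of 4 B and plasma cell markers JCHAIN, which joins secreted antibodies, rose by 2.58 ± 0.51 (adjusted p = 0.00048) and 2 were lower.

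Few endothelial markers passed, 1 of 16 higher and 1 lower (4 and 2 with array weights, 1 and 4 after quantile normalization), with a summed signal of 13.72 to 13.88 in control and 13.55 to 13.81 in RCS. PECAM1 was at 10.82, 10.54, 10.72, 10.57 and 10.54 in control and 10.64, 10.88, 11.09, 11.06 and 10.95 in RCS and did not pass (0.29 ± 0.13, adjusted p = 0.073), though it did with array weights, with the RNA covariate, with only the 2 groups in the fit and without RCS replicate 1. ENG, endoglin, rose by 0.59 ± 0.14 and CAV1, caveolin, fell by 0.28 (adjusted p = 0.0026 and 0.022, and 0.057 for CAV1 without control replicate 1). HBB, beta globin of red cells, was at 8.13 to 8.95 and 7.95 to 8.73 (−0.31 ± 0.15, adjusted p = 0.098). Of 8 adipocyte markers 4 were lower and 1 higher, with ADIPOQ, adiponectin, at 5.27 to 9.67 in control and 4.98 to 5.73 in RCS (−1.06 ± 0.56, adjusted p = 0.12, and −0.20 without control replicate 4). Skeletal muscle markers had 6 of 9 lower, and MYH2, a fast skeletal myosin, was at 4.21 to 4.37 and 4.02 to 4.37 and did not pass (−0.07 ± 0.07, adjusted p = 0.41). Nerve and Schwann cell markers had 3 of 8 higher and 4 lower, and mesothelial markers 1 of 5 higher and 1 lower. The part of these shifts in marker levels in the other differences was not tested.

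**Figure D4:**
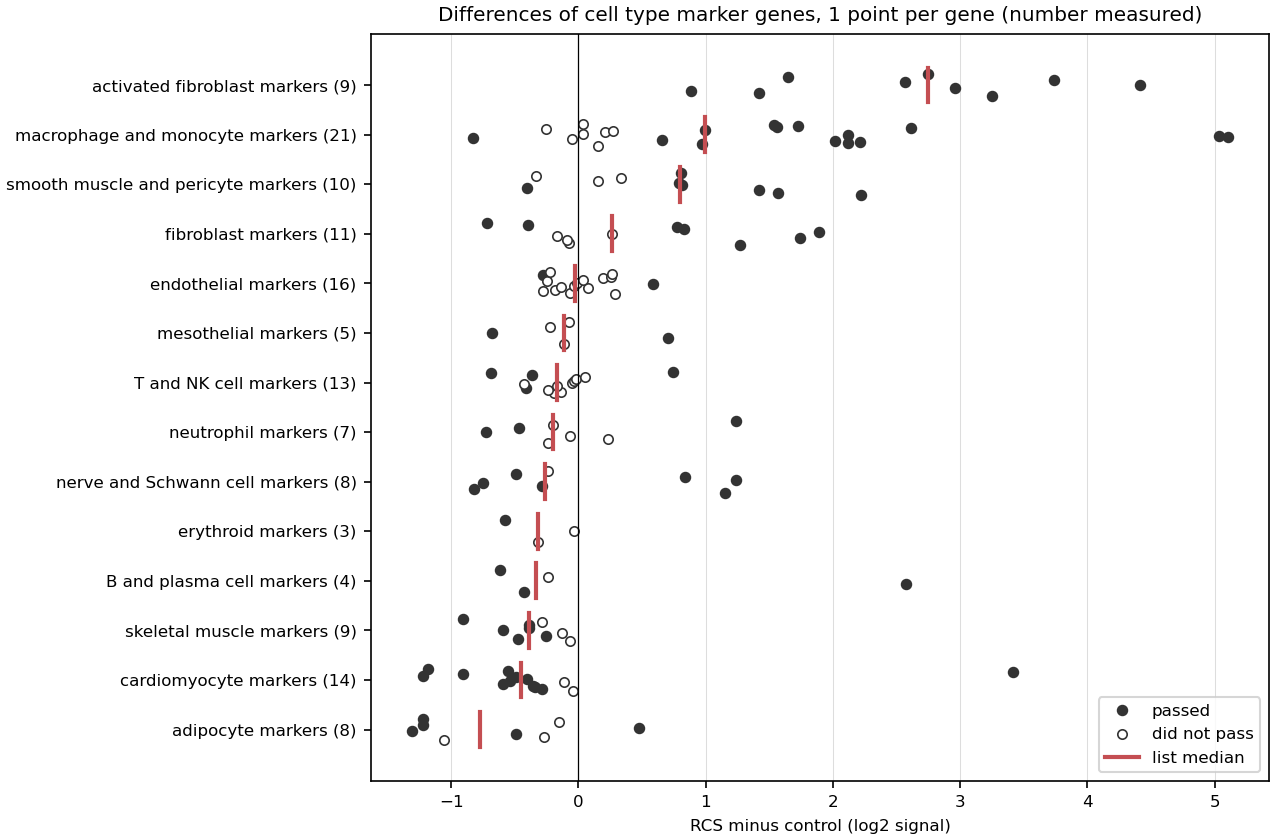
RCS minus control difference (horizontal axis, log2) of each measured marker gene, grouped by cell type; filled points passed, open points did not, and red bars are list medians. All 9 activated fibroblast markers lie to the right, 11 of 14 cardiomyocyte markers passed to the left, and most of the 16 endothelial markers lie near 0.

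Low-flow episodes were next set against the protocols of full occlusion. RCO shares with RCS the number and spacing of episodes, but each consisted of brief occlusions with reperfusion, and SWOP was a single session. In RCS minus SWOP 2571 genes passed (38.0%), 1373 higher (20.3%) and 1198 lower (17.7%). In RCS minus RCO 1463 genes passed (21.6%), 793 higher (11.7%) and 670 lower (9.90%). Over all probe sets 8.75% were higher and 10.3% lower than in RCO. The RCO arrays stood apart from each other: along the main axis of variation between arrays (principal component 1, 48.9% of the variance) RCO replicates 2 and 3 scored 44.0 and 29.4, within the RCS range of 26.4 to 64.3, and the other RCO arrays −18.3 to −3.6. Without replicates 2 and 3, 1458 genes were higher and 1441 lower in RCS than in RCO. With only the RCS and RCO arrays in the fit 149 were higher and 117 lower, and without RCS replicate 3 the counts were 346 and 270. The variance of the main fit is shared by all groups. Its ± and adjusted p-values against RCO are therefore too small where RCO arrays scatter more than the others. The genes named next against RCO passed in all 18 alternatives run unless stated.

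TCN1 was at 4.63, 5.65, 5.7, 4.87 and 5.23 on the RCO arrays against 8.36, 8.53, 7.95, 8.91 and 6.78 on the RCS arrays, a difference of 2.89 ± 0.28 (adjusted p = 3.9e-05). SMPDL3A differed by 2.75 ± 0.41, AMBN by 2.04 ± 0.29 and CPM, a membrane carboxypeptidase, by 2.03 ± 0.36 (adjusted p = 0.00086, 0.00078 and 0.0021). NPPA measured 10.18, 10.82, 13.08, 11.25 and 10.58 in RCO and was 2.25 ± 0.52 higher in RCS (adjusted p = 0.0083). CTSD differed by 1.54 ± 0.23, CRELD2 by 1.3 ± 0.22, CFL1 by 1.06 ± 0.17 and CKB by 0.93 ± 0.22 (adjusted p = 0.00094, 0.0018, 0.0015 and 0.0087). LGALS3 was at 5.68, 11.05, 10.63, 9.02 and 8.57 in RCO, a span that reaches from the control level to the RCS level, and differed by 2.39 ± 0.64 (adjusted p = 0.016), a call that was lost with only the 2 groups in the fit (adjusted p = 0.097). Lower in RCS than in RCO were AGTR1 by −0.69 ± 0.13, SLC8A1 by −0.73 ± 0.17, PDE3A by −0.75 ± 0.16 and DMD by −0.51 ± 0.10 (adjusted p = 0.0026, 0.0079, 0.0048 and 0.0033). Skeletal myosin light chain MYL1 was at 10.02, 10.70, 8.95, 8.55 and 9.49 in RCO and 7.89, 7.19, 7.05, 8.25 and 7.89 in RCS, a difference of −1.89 ± 0.40 (adjusted p = 0.0053). The interferon-induced UBD, XAF1 and ISG12(A) differed by −1.83 ± 0.35, −1.14 ± 0.24 and −1.31 ± 0.34 (adjusted p = 0.0032, 0.0047 and 0.015). In RCS minus control MYL1, UBD and ISG12(A) did not pass, at 0.14, −0.60 and −0.47 (adjusted p = 0.80, 0.17 and 0.26). XAF1 was lower than in control by 0.59 (adjusted p = 0.046), a call lost in 10 of 20 alternatives.

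HSPA6 ran the other way in value, at 11.88, 9.1, 13.13, 12.85 and 12.77 in RCO and 12.17, 10.43, 8.19, 11.82 and 10.40 in RCS, but the difference of −1.34 ± 0.68 did not pass (adjusted p = 0.16). It did pass as lower in RCS without RCO replicate 2 and without replicates 2 and 3 (lowest adjusted p = 0.0092), as did HSPH1, DNAJB1 and HSP70.2. Against SWOP HSPA6 was higher, at 4.08 ± 0.68 (adjusted p = 0.00020). SPP1 was at 9.0, 13.27, 13.60, 12.75 and 12.05 in RCO, with 1.53 ± 0.65 between RCS and RCO (adjusted p = 0.098), and at 9.57, 7.17, 9.42, 8.7 and 8.36 in SWOP, with 5.02 ± 0.65 (adjusted p = 2.3e-05). KCNIP2 and AGT differed from RCO by −1.18 ± 0.45 and −0.81 ± 0.38 (adjusted p = 0.069 and 0.13) and from SWOP by −2.29 ± 0.45 and −2.41 ± 0.38 (adjusted p = 0.00077 and 0.00013). Against RCO, SPP1 passed without RCO replicate 2 or 3, KCNIP2 with array weights and without RCO replicate 2 or RCS replicate 1, and AGT without RCS replicate 1. Of the 15 largest increases over control 9 were also higher than in RCO and 15 higher than in SWOP. Of the 15 largest decreases 10 and 14 were lower. Over all genes 11.7% were higher than in RCO and 20.3% higher than in SWOP, and 9.90% and 17.7% were lower. The genes were chosen by their values on the same RCS arrays, which by itself raises such counts. With only the 2 groups in the fit the counts against RCO were 6 and 0, without RCS replicate 3 they were 8 and 5, and without RCO replicate 5 they were 8 and 6. Over all genes 149 were higher and 117 lower with the 2 groups, and 346 and 270 without RCS replicate 3.

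**Figure D5:**
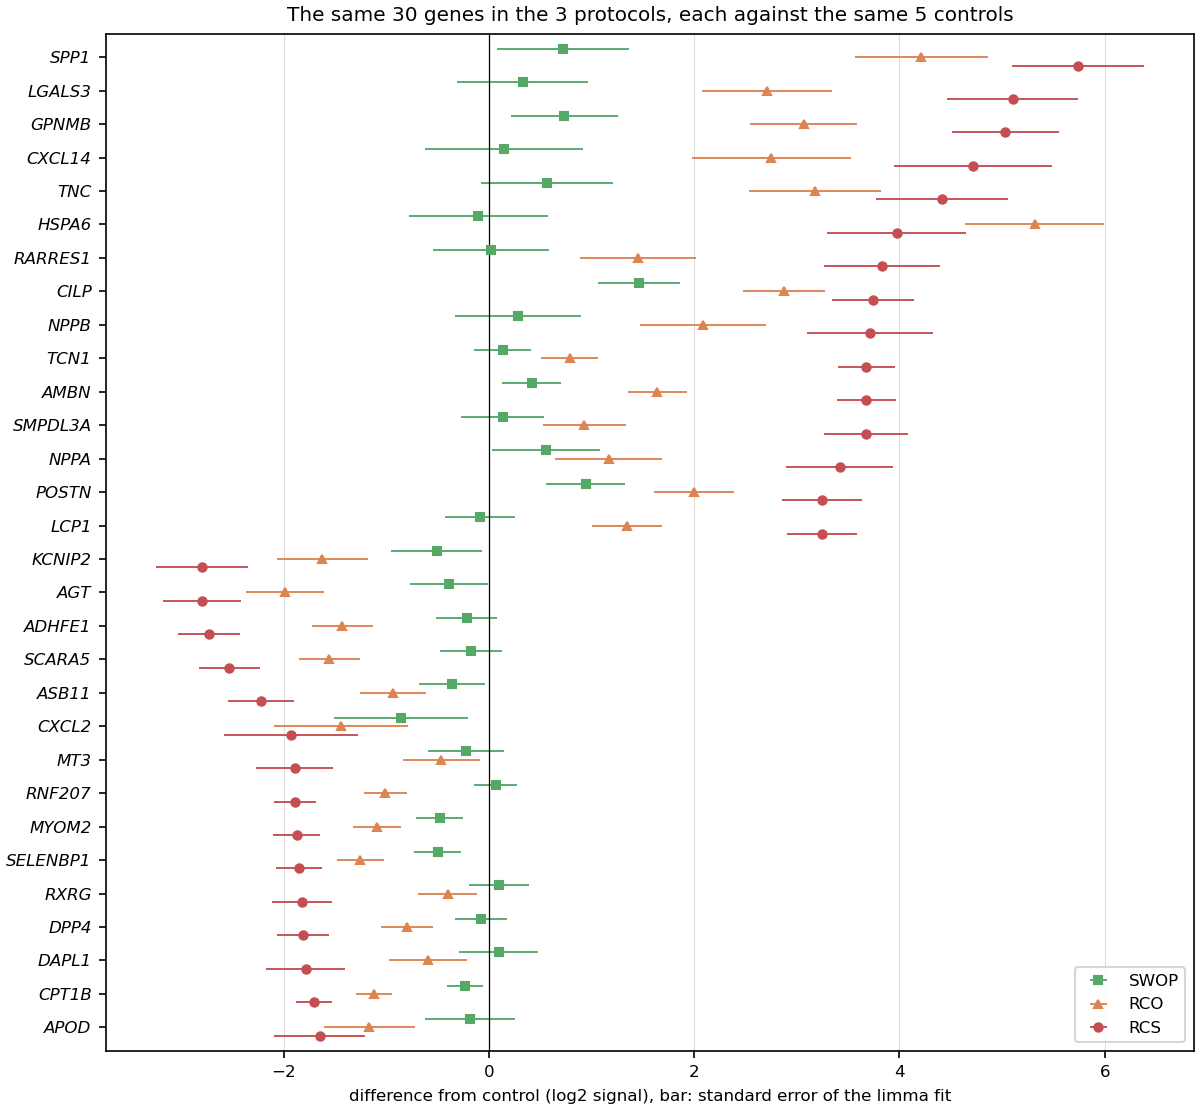
Difference from control (horizontal axis, log2, bars the standard error of the limma fit) in SWOP, RCO and RCS for the 15 largest increases and 15 largest decreases of RCS. The 3 protocols are set against the same 5 control arrays, so their values are not independent; SPP1 stands at 0.72, 4.21 and 5.74, and HSPA6 at −0.11, 5.32 and 3.97.

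By role, the differences from RCO were as follows. Secretory genes were higher in RCS than in RCO in 28 of 47, lysosomal genes in 18 of 25, genes of the endoplasmic reticulum list in 14 of 19, and actin, annexin and S100 genes in 24 of 51, beside 11.7% over all genes. With only RCS and RCO in the fit these counts were 4, 2, 4 and 3, and 149 of all 6765 genes were higher. Without RCS replicate 3 the list counts were 10, 12, 10 and 9, with 346 of all genes higher. Without RCO replicate 5 they were 11, 12, 10 and 10. They were 13, 12, 12 and 12 without RCO replicate 1 and 17, 13, 12 and 13 without RCO replicate 4, and the actin list fell to 13 and 14 without RCS replicates 2 and 4. Subunits of oxidative phosphorylation were lower than in RCO in 29 of 54 and lower than in SWOP in 50, beside 9.90% and 17.7% over all genes. In the fit of the RCS and RCO arrays alone none of the 54 passed against RCO, and 117 of all genes were lower. The count of subunits was 4 without RCS replicate 3, 9 without any one of RCS replicate 2 and RCO replicates 1, 4 and 5, 14 without RCS replicate 4, and 48 without RCO replicate 2. Over all genes 270 were lower without RCS replicate 3 and 1207 without RCO replicate 2, beside 670 in the main fit. Interferon-stimulated genes were lower than in RCO in 11 of 28, and between 4 and 18 of them over the alternatives. The median of this list against control was −0.08 in RCS and 0.55 in RCO. Cytosolic heat shock proteins were higher than in RCO in 1 of 26 and lower in 0, but without RCO replicate 2 the counts were 1 and 7. Calls rose over all genes in that fit too, to 1205 higher and 1207 lower of 6765. Because RCS, RCO and SWOP were each set against the same control arrays, medians against control are given only side by side: for the endoplasmic reticulum list 1.18 in RCS, 0.63 in RCO and 0.23 in SWOP, for the lysosome 1.24, 0.54 and 0.15, for fatty acid oxidation −0.65, −0.34 and −0.09, and for activated fibroblast markers 2.75, 1.6 and 0.4.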

How the data were processed

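The authors deposited log2 signals of a 1-colour Affymetrix porcine array, 20 arrays with 24123 probe sets. The submitters' processing notes name RMA and MAS5, with neither their roles nor versions, and the base of the logarithm, not stated there, was taken as 2 from the range, 3.22 to 15.18. Per the labels' protocols, RNA was extracted with Trizol and labelled with biotin after priming from the poly(A) tail. The design text describes 5 pigs in each group. After 124 control probe sets were set aside, 23999 were tested as deposited: group means of all 20 arrays were fitted with lmFit and eBayes of limma 3.58.1 (R 4.3.3), leaving 16 residual degrees of freedom, with Benjamini-Hochberg adjustment. The platform's probe table gave 1 symbol to 10069 probe sets, several to 198 and none to 13732. A gene is its brightest probe set (6765 genes, 2261 with more than 1).

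The groups of genes, markers and naming rule were chosen with earlier results of these data known. The rule took symbols that are not locus or clone names, whose brighter group lay above the 30th percentile of mean signal, and an adjusted p below 0.05: the 15 largest differences from control in each direction, the 10 largest against RCO and SWOP, and up to 5 members of smallest p in each list; defining cell markers were named whatever their result. Outside it, after their values were seen, HSP70.2, HSPA5, CTSC, SLC2A4, SLC2A1, PFKM, COX6A1, PRKAG2, GPX1, NOS2, PTGS2, VEGFA, BCL2L1, XAF1, ATP2A2, PLN, SLN, CCND2 and MARCO were chosen. The procedure was tested on simulated data with independent noise, the same spread in every group and few probe sets changed. That setting lacks the uneven RCO arrays and the many differences of these data, so it cannot show how the fit handles them. Array properties were compared by exact permutation over 252 divisions. Alternatives were quantile normalization, median centring, a filter on dim probe sets, another variance model, array weights, the replicate number as a block, other sets of arrays in the fit, an RNA covariate, a 1.5-fold limit, the mean over probe sets and each array left out. Promoter motifs were not analysed here. Python 3.11.15, pandas 2.3.3 and matplotlib 3.10.9 made tables and figures.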

Additional observations from a re-analysis of the deposited data

Results flagged for a closer look

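Each of the 199 genes named with values and the array properties were checked, in control and in RCS, for an array whose gap to its nearest neighbour took an unusually large share of the group's range (Dixon's test for 5 values). The check marked 25 of 412 groups of arrays, or 6.07%, where chance marks about 5%. RCS replicate 1 was the array in 7 of them, RCS replicate 5 and control replicate 4 in 5 each. The causes were not tested.

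In RCS, replicate 1 was the lowest for CILP (11.11, the others 12.29 to 12.46), XIRP2 (10.83, the others 11.79 to 12.17), FHL1 (13.15, the others 13.74 to 13.86), CNN1 (10.04, the others 10.90 to 11.20) and CD3E (5.73, the others 5.96 to 6.05). The same array was the highest for EIF4B (10.95, the others 10.55 to 10.63) and HBB (8.73, the others 7.95 to 8.04). RCS replicate 5 was the lowest for BTG1 (11.49, the others 11.81 to 11.86), CKS2 (9.04, the others 9.65 to 9.82), FCER1G (8.83, the others 9.62 to 9.94) and PTGS2 (4.14, the others 4.25 to 4.29), and the highest for TTN (14.02, the others 13.78 to 13.84). INSIG1 was high in RCS replicate 4 (9.77, the others 9.14 to 9.28) and ADIPOQ in RCS replicate 2 (5.73, the others 4.98 to 5.16).

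Among the controls, replicate 4 was the highest for ADIPOQ (9.67, the others 5.27 to 5.6), PTGS2 (6.0, the others 3.96 to 4.26), SCARA5 (9.87, the others 8.38 to 8.71), TIMP1 (10.28, the others 8.75 to 9.12) and IL18 (6.3, the others 5.66 to 5.77). GPX1 was low in control replicate 3 (8.34, the others 10.56 to 10.74), which was the highest for CRYAB (13.77, the others 13.57 to 13.60). Control replicate 2 was the highest for PTGES3 (8.37, the others 7.98 to 8.09) and ACAA2 (12.13, the others 11.74 to 11.85). LCP1 was high in control replicate 5 (7.09, the others 6.63 to 6.68) and MYL3 in control replicate 1 (14.59, the others 14.52 to 14.54).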

How the results depend on the processing

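Of the 188 named genes that passed against control, 176 passed in every one of 20 alternatives and 12 lost their call in at least 1. The limit of 1.5-fold is not among these 20, and named genes that differed by less than 1.5-fold could not pass it. CTSC changed sign, at 0.075, with the mean over its probe sets. Some increases shrank without losing their call. The smallest over the alternatives was 0.48 for PTGES3 (1.04 in the main fit), 0.33 for HIF1A (0.68) and 0.36 for CAPZB (0.76). For PTGS1 it was 0.51 (0.98) and for TIMP2 0.97 (1.55). The count of probe sets that passed against control fell from 11404 to 691 with a limit of 1.5-fold and ranged from 9439 (without RCS replicate 3) to 11417 (without RCS replicate 5) over single arrays left out, and that of genes from 3170 to 3695. For RCS minus RCO the 4572 probe sets became 931 with only the 2 groups fitted and 9052 without RCO replicates 2 and 3, an alternative chosen after seeing the data, and ranged from 2053 (without RCS replicate 3) to 7448 (without RCO replicate 2). RCS minus SWOP, at 6989, ranged from 5430 to 7118 over single arrays left out and was 8636 with only the 2 groups fitted and 10227 with array weights. The share of higher calls among probe sets was 40.6%, 42.4% after quantile normalization and 44.1% with arrays centred on their medians; among genes it was 52.8%, 47.5%, where lower calls prevail, and 55.8%. The median of the hypoxia, cytokine, interferon, late preconditioning, integrin, B cell and endothelial lists changed sign under at least 1 alternative, and the direction with more calls turned in the glucose, immediate early, glucocorticoid, cytokine and interferon lists. The replicate numbers of the labels did not pair the arrays (correlations of deviations −0.043 to 0.099 between equal numbers of RCS and control), and with them as a replicate block 11796 probe sets and 3808 genes passed against control, 5275 probe sets against RCO and 7434 against SWOP. Having 5 arrays a group limits the precision, with a median standard error of 0.111 (log2). Raw image files were not used here, so the background signal and the authors' normalization could not be varied.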
